A study of Mus musculus with 6 samples.

Results

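The SVZ subtype was the smallest of the neuron subtypes in cells collected from mouse cerebral cortex on postnatal day 5 (P5), with 65 of 18393 cells in all and of 4139 neurons. Its members were the cells that carried the SVZ label, for subventricular zone, in the authors' annotation. They were set beside the 2160 cells of the Excitatory subtype and the 682 of the Ganglionic subtype. Cells came from 3 wild type (WT) mice, of strain FVB.129P2-Pde6b+ Tyrc-ch/AntJ, and from 3 *Fmr1*-KO mice, which carry the Fmr1 tm1Cgr allele on the same FVB background. Both hemispheres of each P5 mouse were dissociated with papain, and both sexes were used. The mice were not treated, and *Fmr1* is inactivated in every cell of the *Fmr1*-KO mice rather than in chosen cell types. Single cells were captured by InDrop, which labels the transcripts of a cell with a cell barcode and each transcript with a unique molecular identifier (UMI). WT 1, *Fmr1*-KO 1 and *Fmr1*-KO 2 were collected with V2 beads and WT 2, WT 3 and *Fmr1*-KO 3 with V3.8 beads.

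In the developing cortex, intermediate progenitors arise from radial glia, switch on the T-box factor *Eomes* (also called Tbr2), leave the ventricular surface and divide in the subventricular zone to produce glutamatergic neurons. Their daughters lower *Eomes*, switch on the NEUROD factors and *Tbr1* and migrate outward along radial glia, guided by semaphorin, netrin and Reelin signals. The ganglionic eminences, in contrast, supply GABAergic interneurons through the *Dlx* genes.

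The SVZ cells held 207719 UMIs, with a median of 3305 UMIs and 1718 genes per cell. Median UMIs per cell were 1274 in Excitatory and 3311 in Ganglionic cells. Levels are given as CPM (counts per 1e6), in which the UMIs of a gene are divided by all UMIs summed over the cells of a mouse or of a subtype, so that a single UMI stood for 4.81 CPM over all SVZ cells and for 15.3 to 116 CPM within 1 mouse. Libraries of the same mouse shared cell barcodes. Of all cells, 4561 (24.8%) had a barcode that was also found in another library of their mouse, and for 1795 of these 1975 barcodes (90.9%) every copy had the same subtype. Among SVZ cells this held for 8 of 65, namely 3 barcodes that 2 SVZ cells of a mouse shared and 2 cells of WT 1 whose other copy had another subtype. A further SVZ cell shared its barcode with a cell of another mouse. Counting each barcode of a mouse once, with the copy of most UMIs, left 60 SVZ cells, and results are given with and without this step where they rest on few cells. One SVZ cell of *Fmr1*-KO 1 stood apart with 9225 UMIs, against 5658 in the next. Cells that the authors had marked as doublets carry another label and are not among the 65.

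The label was checked against markers. *Eomes*, *Sema3c* and *Neurod1*, the genes that mark the subtype in the study, had 156, 141 and 118 UMIs in the 65 cells. In 22 cells all 3 were found, in 26 cells 2, in 16 cells 1 and in 1 cell 0. The genes of cell division went against the name of intermediate progenitors. *Mki67*, *Cdk1* and *Ccnb1*, which dividing cells express, had 0 UMIs, and the authors' phase calls put 62 of the 65 cells in G1, 1 in S and 2 in G2M. The group is therefore called SVZ cells here, by its label. Because cells were assigned to subtypes by the expression of these same genes, levels of SVZ cells against other subtypes are a description and were not tested.

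The promoters of the genes with the largest ratio of SVZ cells to Excitatory cells (*Eomes*) and to Ganglionic cells (*Neurod2*) are shown, as the regulatory sequence next to the genes that set SVZ cells apart. They are RefSeq sequences of build GRCm38.p6, 5′ to 3′ on the strand of the gene, up to 250 bases before the RefSeq start of transcription. *Eomes* lies at chr9:118477939-118478188 on the plus strand. *Neurod2* lies at chr11:98329649-98329895 on the minus strand, where 3 bases that belong to an annotated exon were left out. Capitals mark a match to TATATAA, a form of the element that positions the general transcription machinery, in the first sequence. In the second they mark CAGATG, an E-box that NEUROD factors can bind. Both were searched on both strands and do not overlap.
Eomes: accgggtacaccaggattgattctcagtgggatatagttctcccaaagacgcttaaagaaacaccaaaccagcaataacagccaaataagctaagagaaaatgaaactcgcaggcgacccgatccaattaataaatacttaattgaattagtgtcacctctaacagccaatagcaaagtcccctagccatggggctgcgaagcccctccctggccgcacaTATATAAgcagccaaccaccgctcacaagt
Neurod2: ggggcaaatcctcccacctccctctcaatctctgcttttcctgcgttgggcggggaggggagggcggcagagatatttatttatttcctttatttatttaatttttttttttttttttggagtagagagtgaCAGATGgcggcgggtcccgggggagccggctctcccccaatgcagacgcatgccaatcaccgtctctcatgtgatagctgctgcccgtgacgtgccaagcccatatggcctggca
The *Eomes* window held 1 TATATAA match, beginning 30 bases before the start, and 0 of CAGATG. The *Neurod2* window held 1 CAGATG match, 118 bases before the start, and 0 of TATATAA. Of 32851 mouse promoter windows of 250 bases, 3.04% held TATATAA and 14.4% held CAGATG on either strand. The transcribed genes themselves are protein coding and lie, in the GENCODE annotation of GRCm38, on chromosome 9 from 118478212 to 118486132 (*Eomes*, plus strand) and on chromosome 11 from 98325415 to 98329648 (*Neurod2*, minus strand). *Sema3c* lies on chromosome 5 from 17574281 to 17730268 on the plus strand, and *Neurod1* on chromosome 2 from 79452521 to 79456751 on the minus strand.

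The 3 marker genes were higher in the SVZ cells of each mouse than in the Excitatory and Ganglionic cells of any mouse. *Eomes* was at 320.1, 578 and 1234 CPM in WT 1, WT 2 and WT 3 and at 604, 1542 and 627 CPM in *Fmr1*-KO 1, *Fmr1*-KO 2 and *Fmr1*-KO 3. Its highest level in a mouse was 14.8 CPM in Excitatory and 108 CPM in Ganglionic cells, so that SVZ cells of all 6 mice lay above both. *Sema3c*, a secreted semaphorin that steers axons and migrating cells, was at 640.1, 347 and 475 CPM in the WT mice and at 342, 862 and 872 CPM in the *Fmr1*-KO mice. It reached at most 45.2 CPM in Excitatory and 17.7 CPM in Ganglionic cells of a mouse. *Neurod1*, a bHLH factor of newborn neurons, was at 533, 578 and 94.9 CPM in the WT mice and at 841, 653 and 459 CPM in the *Fmr1*-KO mice. WT 3, with 1 *Neurod1* UMI in 4 cells, lay close to the Excitatory maximum of 76.9 CPM, and the other 5 mice lay far above it. WT and *Fmr1*-KO mice overlapped for each marker.

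**Figure D1:**
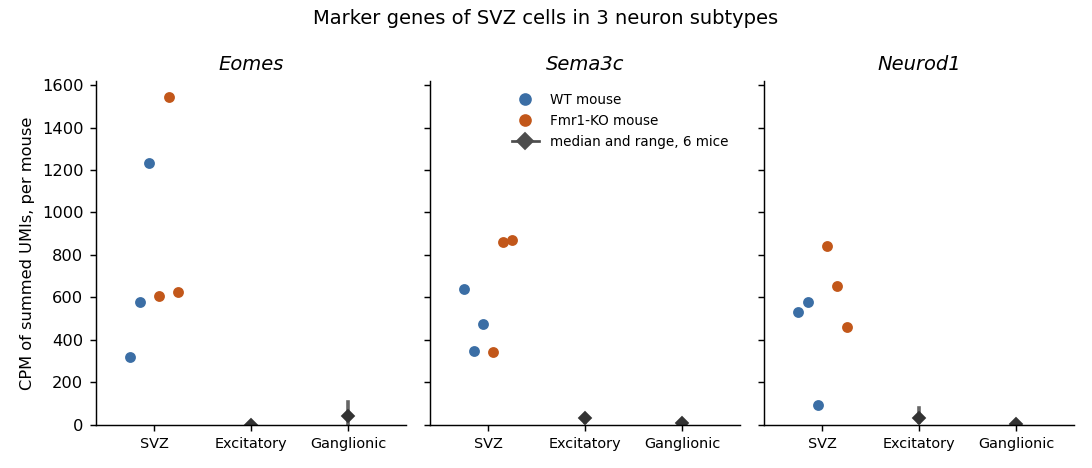
Level of *Eomes*, *Sema3c* and *Neurod1* (CPM of summed UMIs, vertical axis) in SVZ cells of each WT (blue) and *Fmr1*-KO (orange) mouse, with the median (diamond) and range over 6 mice in Excitatory and Ganglionic cells. SVZ cells lie above both subtypes in each panel, and *Neurod1* in WT 3 (94.9 CPM) comes closest.

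In single cells thinned to 700 UMIs, so that depth is the same, *Eomes* had a UMI in 23 of 65 SVZ cells (35.4%, 95% exact Clopper-Pearson interval 23.9 to 48.2, counting error only). The share was 0.14% of Excitatory, 2.5% of Ganglionic and 0.0943% of Astrocytes_1 cells, a type that should lack the gene. *Sema3c* was found in 36.9% of SVZ cells (25.3 to 49.8) and in 0.0786% of Astrocytes_1 cells, and *Neurod1* in 30.8% (19.9 to 43.4) and 0.157%. At full depth 69.2%, 78.5% and 58.5% of SVZ cells had a UMI of *Eomes*, *Sema3c* and *Neurod1*. *Igfbpl1*, which is known from newborn neurons, had a UMI in 87.7% of thinned SVZ cells (77.2 to 94.5), in 25.7% of Ganglionic, in 50.3% of Interneuron and in 2.28% of Excitatory cells. *Sox11*, a factor of immature neurons, was found in 96.9% of SVZ cells (89.3 to 99.6), and also in 77.8% of Ganglionic and 88.2% of Interneuron cells.

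Beyond the markers, 20 genes with at least 20 UMIs were ranked by the multiple of their SVZ level over the next highest subtype with 50 or more cells. *Sema3c* led at 21.4 times the level in interneurons, before *Eomes* at 14.9 times that in Ganglionic and *Neurod1* at 13.0 times that in Excitatory cells. *Unc5d*, a netrin receptor of the upper layer lineage, was at 799 CPM in SVZ and 85.8 CPM in Excitatory cells, a multiple of 9.32. *Pam*, which amidates neuropeptides, followed at 7.89 and the LIM-only factor *Lmo1* at 7.32. Of the 20 genes, *Igfbpl1* was found in all 65 cells and was at 3726 CPM against 991 CPM in interneurons. The same list held the chromatin and transcription regulators *Hdac9* (4.44), *Mllt3* (3.22), *Mn1* (3.11) and *Cbfa2t2* (2.86) and the somatostatin receptor *Sstr2* (3.47), whose next subtype was Excitatory cells at 36.1 CPM. The remaining genes were *Ttc28*, *Wbscr17*, *Rwdd3*, *Cttnbp2*, *Frmd4b*, *Zfp790*, *Lrrc16b* and *Med27*, with multiples from 2.66 to 4.89.

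**Figure D2:**
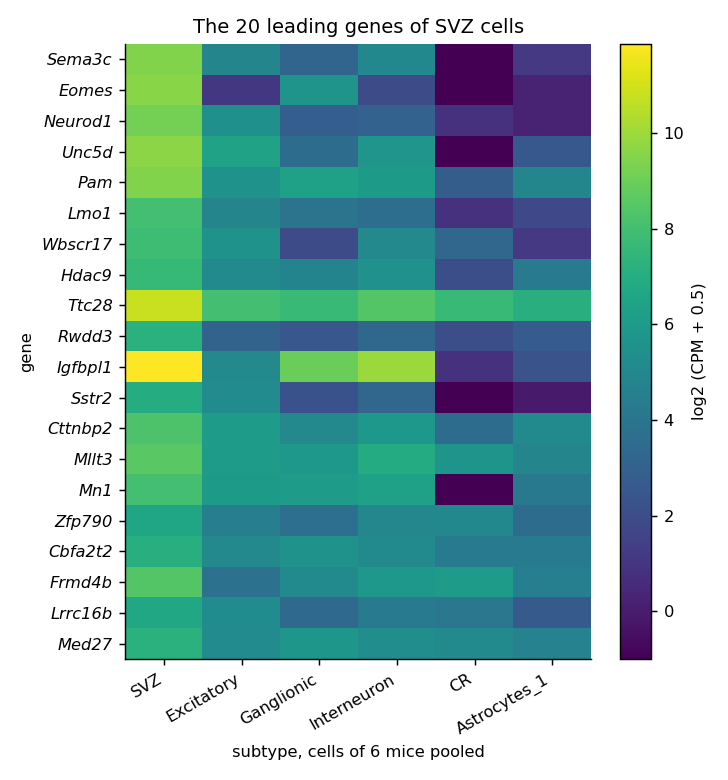
The 20 leading genes of SVZ cells (rows) in 6 subtypes (columns), as log2 of CPM + 0.5 over the pooled cells of 6 mice, brighter for higher. The SVZ column is the brightest in every row, and the next column differs between genes, with Ganglionic cells next for *Eomes* and interneurons for *Igfbpl1*.

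To set SVZ cells against the Excitatory and the Ganglionic subtype, all genes that reached the level of 20 SVZ UMIs (96.3 CPM) in either subtype of a pair were compared. A gene was called higher or lower when the pooled CPM differed at least 2-fold and when all 4 mice with 5 or more SVZ cells (WT 1 and the 3 *Fmr1*-KO mice) had the same direction. A gene that reached the minimum in only 1 subtype of a pair could be called higher only in that subtype. Counts of list members depend on this. Against Excitatory cells 435 of 3102 genes (14.0%) were called higher and 585 (18.9%) lower in SVZ cells. Against Ganglionic cells 469 of 3013 genes (15.6%) were called higher and 459 (15.2%) lower. These shares are the base for the counts of list members below. With each barcode of a mouse counted once the counts were 432 and 572 against Excitatory and 458 and 465 against Ganglionic cells. The median log2 ratio over all genes compared was 0.10 and 0.06.

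Against Excitatory cells the largest ratios were those of *Eomes*, 461-fold, *Igfbpl1*, 115-fold, the growth factor *Mdk*, 44.0-fold, *Phf21b*, 37.1-fold, and *Mfng*, 31.0-fold, a glycosyltransferase that modifies Notch. The *Eomes* ratio rests on 1.63 CPM in Excitatory cells, and its log2 value varied between the 4 mice with an SD of 2.30. *Mdk* was at 320.1, 1041 and 760 CPM in the SVZ cells of the WT mice and at 841, 967 and 627 CPM in those of the *Fmr1*-KO mice, and Excitatory cells had at most 29.5 CPM in a mouse. At the other end, *Camkv*, *Grm5*, *Nwd2*, *Slc12a5* and *Cck* had 0 UMIs in SVZ cells. Set against a floor of 3 UMIs over all SVZ cells, they were at least 24.2-, 22.6-, 21.8-, 18.2- and 15.4-fold lower than in Excitatory cells. *Slc12a5* encodes KCC2, the chloride exporter of mature neurons, and *Grm5* a metabotropic glutamate receptor.

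Against Ganglionic cells the largest ratios belonged to *Neurod2*, 167-fold, *Neurod6*, 110-fold, *Neurod1*, 85.8-fold, *Sema3c*, 79.2-fold, and *Unc5d*, 70.7-fold. *Neurod2*, a bHLH factor of glutamatergic neurons, was at 875, 578 and 475 CPM in the SVZ cells of the WT mice and at 788, 758 and 597 CPM in those of the *Fmr1*-KO mice, and at most 8.47 CPM in the Ganglionic cells of a mouse. *Neurod6* was uneven, with 576 CPM in WT 1, 0 in WT 2 and WT 3, which had 3 and 4 SVZ cells, and 657, 52.3 and 535 CPM in the *Fmr1*-KO mice. Among the lowest ratios were those of *Mki67*, *Ccna2*, *Cdk1* and *Pbk*, all at 0 UMIs in SVZ cells and at least 64.0-, 36.2-, 29.9- and 27.4-fold lower than in Ganglionic cells. All 4 act in cell division.

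Of 20 genes tied to intermediate progenitors, 19 had a UMI in SVZ cells. Against Excitatory cells 8 of the 9 members compared were called higher and 0 lower, with a median log2 ratio of 3.69. The 8 include *Eomes* and *Neurod1*, which mark the subtype, and the median is the ratio of *Neurod1*. The count is thus not independent of the label. Against Ganglionic cells 5 of 12 were called higher (*Eomes*, *Neurod1*, *Sstr2*, *Rcor2* and *Igfbpl1*) and 4 lower (*Insm1*, *Btg2*, *Gadd45g* and *Dll1*), with a median of 0.62. *Insm1*, a zinc finger factor that moves progenitors off the ventricular surface, was at 284 CPM in SVZ cells, 724 CPM in Ganglionic and 11.9 CPM in Excitatory cells. *Neurog2*, the proneural factor upstream of *Eomes*, had 18 UMIs in 13 cells, or 86.7 CPM against 13.2 in Ganglionic and 1.00 in Excitatory cells, below the minimum for a call. *Neurog1* had 0 UMIs. *Rcor2*, a corepressor partner of INSM1, was at 342 CPM, the highest of the subtypes ranked.

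Radial glia and stem cell genes were low. Against Ganglionic cells 10 of 10 members compared were called lower, with a median log2 ratio of -2.98. Of these only *Pax6* and *Fabp7* reached the minimum in SVZ cells, and the others could not be called higher. *Sox2*, the factor of neural stem cells, was at 43.3 CPM against 448 CPM, the intermediate filament gene *Vim* at 53.0 against 419.9 CPM, and *Fabp7*, a lipid carrier of radial glia, at 366 against 1029 CPM. Against Excitatory cells only *Pax6*, a factor that radial glia hand on to intermediate progenitors, was called (higher, 135 against 14.9 CPM), among 4 members compared. The Notch effectors *Hes1* and *Hes5*, which keep radial glia undifferentiated, had 0 and 1 UMI.

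Division genes were near the floor. Of 20 genes of G2 and mitosis, 10 had 0 UMIs in SVZ cells, and of 20 S phase genes 4 had 0. Against Ganglionic cells all 20 genes of G2 and mitosis and the 14 S phase genes compared were called lower, and none of either list reached the minimum against Excitatory cells. None reached the minimum in SVZ cells, so each was compared through its Ganglionic level and could not be called higher. The summed level of G2 and mitosis genes was 188 CPM in SVZ, 317 CPM in Excitatory and 8571 CPM in Ganglionic cells, and that of S phase genes was 453, 337 and 5421 CPM. The median log2 ratio to Ganglionic cells was -7.44 for G2 and mitosis and -3.91 for S phase, or -4.37 and -3.68 with genes at 0 UMIs set to the floor of 3 UMIs. *Top2a*, which untangles chromosomes, had a UMI in 0 of 65 thinned SVZ cells (exact Clopper-Pearson interval 0 to 5.52%). The share at that depth was 48.8% of Ganglionic, 2.14% of Excitatory and 5.36% of Astrocytes_1 cells. At full depth 2 of 65 SVZ cells had a *Top2a* UMI (3.08%, 0.375 to 10.7) and 73.3% of Ganglionic cells.

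The list of newborn and migrating neuron genes was measured in full, with 20 of 20 genes detected. Against Ganglionic cells 8 of 20 were called higher and 1 lower (*Rnd3*), with a median of 0.85. Against Excitatory cells 6 of 19 were called higher and 4 lower, with a median of 0.07. Of all genes 14.0% were called higher and 18.9% lower, so the share called lower is near that of all genes. The 6 were *Dcx*, *Sox4*, *Sox11*, *Elavl2*, *Elavl4* and *Rnd2*, and the 4 were *Stmn2*, *Map1b*, *Dclk1* and *Ncam1*, which act in growing axons and adhesion. *Rnd2*, a small GTPase gene that NEUROG2 uses to start radial migration, was at 789.5, 925 and 569.7 CPM in the WT mice and 578, 993 and 719 CPM in the *Fmr1*-KO mice. Excitatory and Ganglionic cells of a mouse had at most 70.1 and 65.0 CPM, so that SVZ cells of each mouse lay above both. *Dcx*, the doublecortin gene of migrating neurons, ran from 917 to 1255 CPM over the 6 mice, above the Excitatory range of 449.8 to 620.0 CPM. Over pooled cells, however, *Dcx* was higher in interneurons, at 1319 CPM against 1098 CPM in SVZ cells. The summed list was at 48436 CPM in interneurons and 45499 CPM in SVZ cells, so its total did not set SVZ cells apart from interneurons. *Rnd2* and *Elavl2* went the other way, at 90.8 and 466 CPM in interneurons against 761 and 900 CPM in SVZ cells. *Stmn2*, a regulator of microtubules in growing neurites, was at 380.3 CPM against 3596 CPM in Excitatory cells.

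Among 25 guidance and migration genes, 11 of the 11 members compared with Ganglionic cells were called higher, with a median log2 ratio of 2.47. Most of them, among these the marker *Sema3c*, reached the minimum in SVZ cells alone and could not be called lower. Against Excitatory cells 7 of 16 were called higher and 6 lower, with a median of 0.21. The 7 were the ligand *Sema3c*, the receptors *Nrp1*, *Plxna2*, *Dcc*, *Robo1* and *Unc5d*, and *Lrp8*, a Reelin receptor. *Nrp1*, which binds class 3 semaphorins, was at 917, 1620 and 759.6 CPM in the WT mice and at 447, 497 and 719 CPM in the *Fmr1*-KO mice, with at most 120 CPM in the Excitatory and 49.4 CPM in the Ganglionic cells of a mouse. The 6 lower genes were *Plxna1*, *Plxnd1*, *Robo2*, *Cdh13*, *Dab1* and *Vldlr*. *Lrp8* was at 924 against 160.5 CPM in Excitatory cells, whereas the other Reelin receptor *Vldlr* and the adaptor *Dab1* were at 14.4 and 9.63 CPM (3 and 2 UMIs) against 164 and 203 CPM. *Plxnd1*, a plexin that binds semaphorins, had 0 UMIs.

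Glutamatergic neuron genes were called in opposite directions against the 2 subtypes. Against Ganglionic cells 7 of 10 members compared were called higher and 0 lower, with a median of 3.94. The 7 reached the minimum in SVZ cells alone and could not be called lower. Against Excitatory cells 2 of 18 were called higher, *Neurod2* (2.53-fold) and *Tbr1* (3.72-fold), and 9 were called lower, with a median of -0.94. Of all genes 14.0% were called higher and 18.9% lower, so the share called higher does not exceed that of all genes. *Tbr1*, the T-box factor that follows *Eomes* in this lineage, was at 256, 463 and 569.7 CPM in the WT mice and at 394, 601 and 260.1 CPM in the *Fmr1*-KO mice, above the Excitatory maximum of 147 CPM in each mouse. *Nrgn*, a calmodulin-binding protein of mature dendrites, was 32.5-fold lower than in Excitatory cells, and *Mef2c*, a factor of maturing neurons, was 73.3-fold lower with 6 UMIs. *Slc17a7*, the vesicular glutamate transporter of mature cortical neurons, had 1 UMI (4.81 against 175 CPM), whereas its relative *Slc17a6* was at 164 against 101 CPM and was not called. *Rorb* and *Lpl* had 3 and 2 UMIs.

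**Figure D3:**
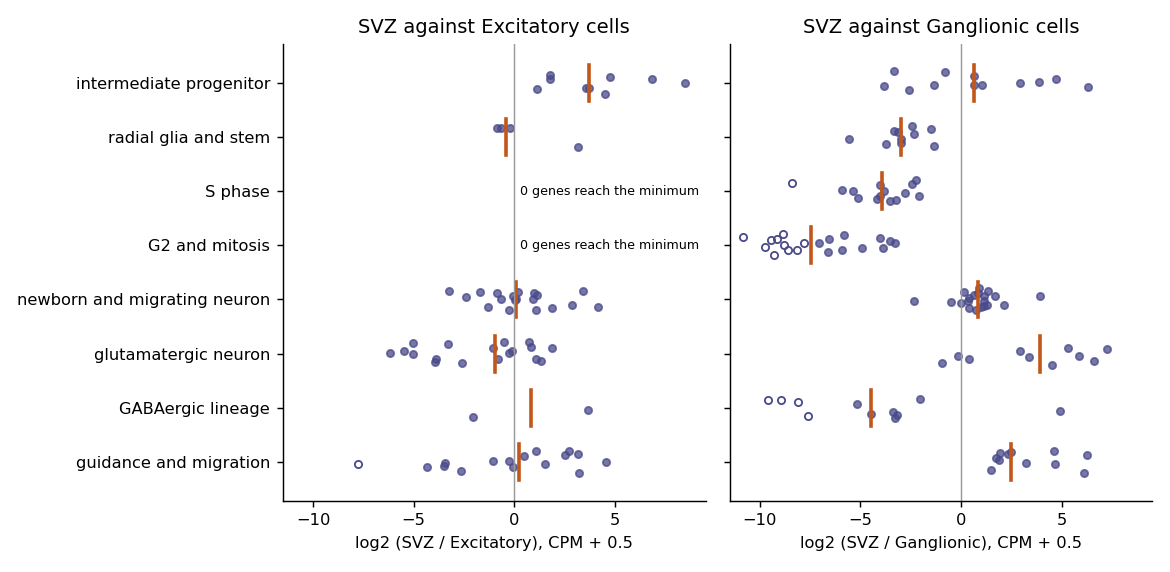
log2 ratio of SVZ to Excitatory (left) and to Ganglionic cells (right), from pooled CPM with 0.5 CPM added, for the genes of 8 lists that reached the minimum level. Each point is a gene (open: 0 UMIs in SVZ cells, a ratio that depends on the 0.5 CPM) and each orange bar is the median of the list, which against Ganglionic cells is -7.44 for G2 and mitosis and 3.94 for glutamatergic genes.

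Most genes of the GABAergic lineage were low. *Calb2* was at 260.0 CPM against 8.18 CPM in Ganglionic and 55.2 CPM in interneurons, and *Prox1*, which stayed below the minimum for a call, at 62.6 CPM against 19.9 and 32.3 CPM. Of 11 members compared with Ganglionic cells 10 were called lower, with a median log2 ratio of -4.48, or -3.27 with the 4 genes at 0 UMIs set to the floor. The 10 reached the minimum in Ganglionic cells alone and could not be called higher. *Dlx1* and *Dlx2* were at 19.3 and 38.5 CPM against 709 and 870.2 CPM, *Dlx5*, *Sp9* and *Gsx2* were at 0, and *Gad1*, the GABA synthesis enzyme, and *Htr3a* had 1 and 0 UMIs. Of the Cajal-Retzius genes, *Lhx5* and *Trp73* had 0 UMIs and *Reln* 4 UMIs (19.3 CPM), and *Calb2* was the only one compared with Ganglionic cells. Lists of other cell types were low. Summed over 10 genes each, astrocyte genes were at 361 CPM against 24852 CPM in Astrocytes_1, endothelial genes at 53.0 against 16983 CPM in endothelial cells and microglia genes at 57.8 against 19599 CPM in microglia. Oligodendrocyte lineage genes were at 255 against 34067 CPM in oligodendrocytes, and 9 ependymal genes at 24.1 against 7427 CPM in ependymal cells. All 5 sums lay below those of Excitatory cells. Of the astrocyte genes 8 of 10 were detected, of the oligodendrocyte lineage 6 of 10, of the endothelial and of the microglia genes 4 of 10 each, and of the ependymal genes 1 of 9. *Aqp4*, the water channel of astrocytes, had 2 UMIs.

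Of 20 Notch pathway genes, 15 were detected, and against Ganglionic cells 3 of the 5 compared were called lower, the receptor *Notch1*, the ligand *Dll1* and the effector *Hes5*. *Rbpj*, the DNA-binding partner of cleaved Notch, was at 159 CPM, the highest of the subtypes ranked, with 33 UMIs in 21 cells, and was called against neither subtype. *Mfng*, called higher against Excitatory cells, was at 101 CPM against 65.4 CPM in Ganglionic cells and was carried unevenly by the mice, with 810 CPM in WT 2 (7 UMIs) and 42.7 to 131 CPM in the other 5. Of 8 genes of the FMRP family and its partners, 8 were detected. Against Excitatory cells 2 of the 5 compared were called higher, where 14.0% of all genes were. They were the *Fmr1* paralogs *Fxr1* and *Fxr2* (115.5 against 56.6 CPM and 139.6 against 65.2 CPM). Against Ganglionic cells 1 of the 6 compared was called higher (*Cyfip2*) and 1 lower (*Cyfip1*). These shares are near the 15.6% and 15.2% of all genes.

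SVZ cells differed in which lineage genes had a UMI, and the part of sparse counts in this was not tested. A UMI of *Neurod2*, *Neurod6* or *Tbr1* was found in 58 of 65 cells, and 40 of the 45 cells with *Eomes* had one of these too, so that progenitor and neuronal factors were found in the same cells. *Calb2*, the calretinin gene of some newborn neurons, had 54 UMIs in 15 cells, 8 of which also had *Eomes*. It was at 213, 0 and 0 CPM in the WT mice and at 342, 339.8 and 275 CPM in the *Fmr1*-KO mice. WT 2 and WT 3 held only 7 SVZ cells, and their 0 allows up to 347 and 285 CPM at 3 UMIs. *Prox1*, a factor known from granule neurons of the dentate gyrus and from some interneurons, had 13 UMIs in 4 cells, all with *Neurod1*. These 4 cells had 26 of the 118 *Neurod1* UMIs and 11 of the 156 *Eomes* UMIs. They had a median of 5168 UMIs against 3092 in the other 61, and in cells thinned to 700 UMIs *Prox1* was found in 0 of 65.

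The number of SVZ cells was compared between genotypes. WT 1, WT 2 and WT 3 had 15, 3 and 4 SVZ cells, or 0.565%, 0.0815% and 0.117% of their cells without doublets. *Fmr1*-KO 1, *Fmr1*-KO 2 and *Fmr1*-KO 3 had 10, 13 and 20, or 0.493%, 0.505% and 0.682%. On this base the groups overlapped, with WT 1 above 2 of the 3 *Fmr1*-KO mice. As a share of neurons, SVZ cells were 1.38%, 0.514% and 0.805% in WT 1 to WT 3 against 1.57%, 1.48% and 4.4% in *Fmr1*-KO 1 to *Fmr1*-KO 3, which did not overlap. As a share of all cells without doublets, the WT mean was 0.255% ± 0.270 (SD, n = 3) and the *Fmr1*-KO mean 0.560% ± 0.106. The tests that follow use this base unless neurons are named. edgeR's quasi-likelihood test on cell numbers with bead version as a covariate gave a log2 difference of 1.19 (SE 0.70, 95% interval -0.51 to 2.88, FDR = 0.50 over 18 subtypes), which did not pass. A two-sided exact permutation test of the shares gave p = 0.3, where 3 mice against 3 cannot go below 0.1. With V2 beads the mean of the *Fmr1*-KO mice minus the WT mouse was -0.0660 percentage points, and with V3.8 beads the *Fmr1*-KO mouse minus the mean of the WT mice was 0.583 points. Without *Fmr1*-KO 3 the log2 difference was -0.18, without WT 1 it was 2.73, and with each barcode of a mouse counted once it was 1.27. With neurons as the base it was 1.32 (SE 0.63, edgeR FDR = 0.21 over 5 subtypes), which did not pass either, and *Fmr1*-KO minus WT was 0.144 percentage points of neurons with V2 and 3.74 points with V3.8 beads.

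**Figure D4:**
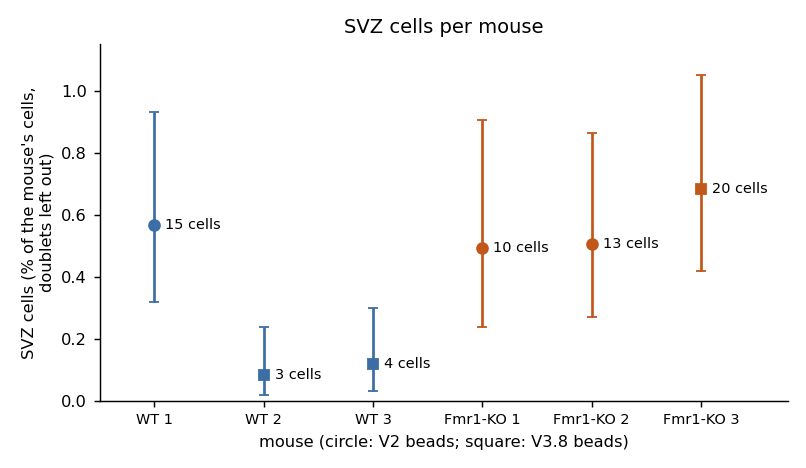
SVZ cells as a percentage of the cells of each mouse without doublets (vertical axis), for WT (blue) and *Fmr1*-KO (orange) mice, with exact 95% Clopper-Pearson intervals for counting error. Circles mark V2 and squares V3.8 beads, and the WT mice of V3.8 beads (3 and 4 cells) lie lowest.

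Expression was then compared between *Fmr1*-KO and WT SVZ cells. *Fmr1*, the targeted gene, was sparse in SVZ cells, with 5, 0 and 0 UMIs for the WT mice against 0, 1 and 1 for the *Fmr1*-KO mice, and fell short of the minimum of a UMI in 15% of SVZ cells. Over all cells without doublets it was at 68.4 to 74.1 CPM in the WT and 16.1 to 19.9 CPM in the *Fmr1*-KO mice, so that every *Fmr1*-KO mouse lay below every WT mouse. UMIs were summed per mouse, and 3773 genes entered a quasi-likelihood fit in edgeR, scaled by TMM, with the bead version as a covariate. At an FDR under 0.01 and the minimum fold change that the study used, 1 gene (0.0265%) was called, *Egr1*, and 95 genes had an unadjusted p under 0.05. DESeq2 called 0 genes, with 9 at an unadjusted p under 0.05. The WT arm held 22 cells, 7 of them from WT 2 and WT 3, which limits the changes that could be detected. None of the genes tested from the lists above was called.

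*Egr1*, an immediate early gene that encodes a zinc finger factor, was detected in *Fmr1*-KO SVZ cells alone. It thus passed the minimum of a UMI in 15% of SVZ cells only through the group where it is high. It had 0 UMIs in each WT mouse against 18, 38 and 23 UMIs for the *Fmr1*-KO mice, or 473, 993 and 352 CPM, so that the groups did not overlap. The edgeR FDR was 1.0e-06. Against a floor of 3 UMIs over the 66043 UMIs of all WT SVZ cells, *Egr1* was 12.3-fold higher over the *Fmr1*-KO SVZ cells. Within V2 beads it was 11.5-fold and within V3.8 beads 2.25-fold higher, with the floor taken over the WT cells of those beads. The floor takes UMIs as independent of each other, so these folds are not lower bounds. *Egr1* was found in 13 of 43 *Fmr1*-KO cells and in 0 of 22 WT cells. Taken as 3 of 22, the upper limit is 13.6% of WT cells with a UMI. This sets no limit on cells that express the gene. A single *Fmr1*-KO cell held 24 of the 79 UMIs, and the folds above count UMIs rather than cells. With V3.8 beads alone, 5 of 20 *Fmr1*-KO cells (25%) and 0 of 7 WT cells had a UMI. Taken as 3 of 7, the upper limit is 42.9% of these WT cells, so that by cells the V3.8 beads do not separate the genotypes. With each barcode of a mouse counted once, 70 UMIs in 12 of 40 cells remained and the FDR was 8.4e-06. The call was lost with DESeq2 (FDR = 0.07), without a filter on low genes (FDR = 0.91), and without WT 1, whose 15 cells hold most of the WT UMIs (FDR = 0.86).

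In the other 4 neuron subtypes the genotypes overlapped. In Ganglionic cells it was at 936, 1601 and 1325 CPM in the WT mice and at 847, 987 and 1529 CPM in the *Fmr1*-KO mice, and in interneurons it ran from 106 to 178 CPM in WT and from 150.1 to 202 CPM in *Fmr1*-KO mice. Excitatory cells had 56.6 to 146 CPM in WT and 73.8 to 80.3 CPM in *Fmr1*-KO mice. In Cajal-Retzius (CR) cells it was at 204, 421 and 188 CPM in the WT mice and lower in 2 of the 3 *Fmr1*-KO mice, at 28.2, 96.3 and 278 CPM. *Egr1* was abundant in Astrocytes_1 cells, the most numerous subtype, at 1116 to 1676 CPM in WT and 849.6 to 1734 CPM in *Fmr1*-KO mice. Summed over the astrocyte list, SVZ cells were at 171, 116 and 285 CPM in WT 1 to WT 3 and at 631, 549 and 275 CPM in *Fmr1*-KO 1 to *Fmr1*-KO 3, with *Fmr1*-KO 3 below WT 3. The part of astrocyte RNA in the *Egr1* level of SVZ cells was not tested. The difference of the genotype effect between subtypes was not tested. Other immediate early genes were looked up after the value of *Egr1* was known. *Fos* was at 64.0, 0 and 189.9 CPM in SVZ cells of the WT mice (3, 0 and 2 UMIs) against 447, 157 and 91.8 CPM in those of the *Fmr1*-KO mice (17, 6 and 6 UMIs), so that WT 3 lay above 2 *Fmr1*-KO mice. *Jun* was at 64.0, 0 and 0 CPM (3, 0 and 0 UMIs) against 604, 157 and 45.9 CPM (23, 6 and 3 UMIs), and WT 1 lay above *Fmr1*-KO 3. *Dusp1* was at 21.3, 0 and 0 CPM (1, 0 and 0 UMIs) against 210, 105 and 45.9 CPM (8, 4 and 3 UMIs), without overlap. Over the WT SVZ cells *Junb*, *Ier2*, *Btg2*, *Nr4a1* and *Fosb* were at 45.4, 45.4, 15.1, 0 and 0 CPM. Over the *Fmr1*-KO SVZ cells they were at 70.6, 70.6, 70.6, 28.2 and 21.2 CPM, from at most 10 UMIs each, and the mice of the genotypes overlapped. *Jund* went the other way, with 636 CPM over the WT and 424 CPM over the *Fmr1*-KO SVZ cells. *Arc* and *Npas4*, which neuronal activity induces, had 0 UMIs in both. These genes also respond to tissue dissociation, and its part in these levels was not tested.

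**Figure D5:**
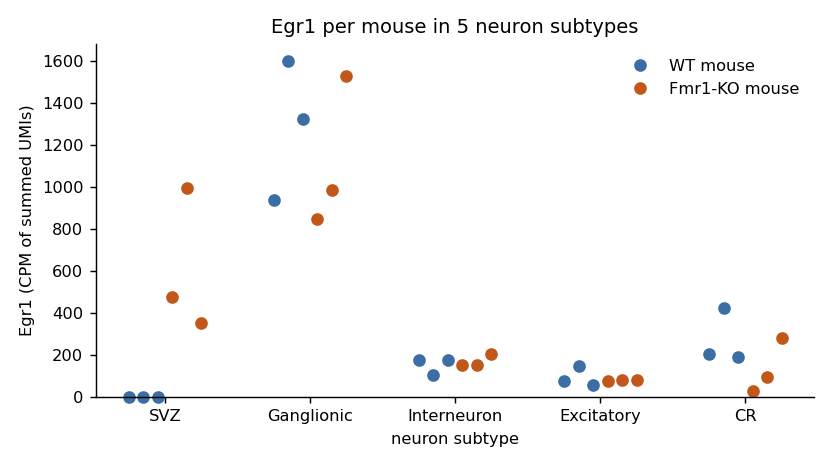
Level of *Egr1* (CPM of summed UMIs, vertical axis) in 5 neuron subtypes, 1 point per WT (blue) and *Fmr1*-KO (orange) mouse. In SVZ cells the WT mice are at 0 and the *Fmr1*-KO mice at 352 to 993 CPM, and in the other 4 subtypes the genotypes overlap.

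The other genes with the smallest p did not pass the test. *Lsm14b*, an mRNA-binding protein gene, had 2, 0 and 0 UMIs for the WT mice against 9, 10 and 17 for the *Fmr1*-KO mice, a log2 difference of 3.11 (SE 0.94). *Hnrnpm*, a splicing regulator, had 4, 1 and 1 against 11, 18 and 17 UMIs. *Hmgcs1*, an enzyme of cholesterol synthesis, had 3, 0 and 1 against 4, 8 and 28 UMIs, and *Fbxw11*, a subunit of a ubiquitin ligase, 0, 0 and 0 against 1, 6 and 7 UMIs. All had an edgeR FDR of 1.00.

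*Eomes* had a log2 difference between *Fmr1*-KO and WT of 0.84 (SE 0.43, edgeR FDR = 1.00), which did not pass. Its difference was of opposite sign with the V2 beads, where the mean was 320.1 CPM in WT and 1073 CPM in *Fmr1*-KO mice, and with the V3.8 beads, with 906 and 627 CPM. *Neurod1* and *Sema3c* had log2 differences of 0.65 (SE 0.45) and 0.56 (SE 0.41), and neither passed. Summed over the GABAergic lineage list, the level in SVZ cells ran from 94.9 to 299 CPM over the WT mice and from 321 to 1156 CPM over the *Fmr1*-KO mice, without overlap. The sums of WT 2 and WT 3 (116 and 94.9 CPM) are 1 UMI each. The gap thus rests on WT 1 at 299 CPM against *Fmr1*-KO 3 at 321 CPM, of which *Calb2* made up 213 and 275 CPM. *Calb2*, the one gene of that list with enough cells to be tested, had a log2 difference of 1.39 (SE 0.64, edgeR FDR = 1.00). The part of these genes in the *Egr1* result was not tested.

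The level of division genes was compared in mice with 5 or more SVZ cells, which leaves WT 1 alone against the 3 *Fmr1*-KO mice. S phase genes summed to 363 CPM in WT 1 and to a mean of 422 CPM in *Fmr1*-KO mice (two-sided exact permutation p = 0.75), and genes of G2 and mitosis to 235 and 188 CPM (exact permutation p = 1). With 1 mouse against 3 the smallest possible p is 0.25, so this design cannot pass. Over all 6 mice the values were 535 and 422 CPM for S phase and 219 and 188 CPM for G2 and mitosis, with exact permutation p of 0.5 and 0.7, where 0.1 is the smallest possible.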

How the data were processed

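Single-cell RNA-seq of P5 cortex from 3 WT and 3 *Fmr1*-KO mice was used as 17 libraries. The authors deposited raw UMI counts of 17418 genes, made with TopHat2 2.0.14 on mm10 and ESAT with RefSeq genes (the tools and build are also in the submitters' processing notes), merged UMIs, kept barcodes above a minimum of UMIs and annotated cells in 2 rounds of clustering. They also deposited size factors, a ratio per cell from scran, and embedding coordinates, a score of position that was not used here. Subtypes are the authors' labels. Members and gene lists were chosen with earlier results of these data known.

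UMIs were summed per mouse and subtype. CPM ratios took 0.5 CPM as pseudocount, and folds came from CPM without it. Single-cell shares were thinned to 700 UMIs, leaving out 13 Excitatory, 1 Ganglionic and 6 Astrocytes_1 cells below this. Tests with mice as replicates used edgeR 4.0.16 (quasi-likelihood, TMM, bead version as a covariate, Benjamini-Hochberg) in R 4.3.3, restricted to genes found in 15% or more of SVZ cells, with DESeq2 1.42.0 as an alternative. All 6 mice entered, since with a minimum of 5 SVZ cells WT keeps 1 mouse. Mice are separate animals, but p-values rest on 3 per group. Tests were checked on simulated data. Tables were made in Python 3.11.15 (pandas 2.3.3, numpy 2.4.6, scipy 1.17.1). SVZ cells of a mouse held 8644 to 65364 UMIs. Intervals and floors (3 UMIs) cover counting error only.

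Genes named are the subtype markers, members of the lists, the 20 leading genes, *Fmr1* and the 5 genes of smallest p between genotypes, and the 5 largest and smallest ratios to each subtype. *Mdk* and other values by mouse are examples of these, and the other immediate early genes were added after seeing *Egr1*. Some genes that this rule would name are not reported here.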

Additional observations from a re-analysis of the deposited data

Results flagged for a closer look

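Of 13 quantities compared between genotypes within each bead version, 3 went one way in every mouse with V2 beads (WT 1 against *Fmr1*-KO 1 and 2) and the opposite way in every mouse with V3.8 beads (WT 2 and 3 against *Fmr1*-KO 3). The difference between bead versions was not tested. The share of SVZ cells was -0.0660 percentage points of all cells (*Fmr1*-KO minus WT) with V2 and 0.583 points with V3.8 beads, whereas as a share of neurons the difference was 0.144 and 3.74 points, of 1 sign. *Neurod2* differed by -102 CPM with V2 and 70.1 CPM with V3.8 beads. *Tbr1* differed by 242 CPM with V2 and -256 CPM with V3.8 beads. The V3.8 WT values rest on 7 SVZ cells.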

How the results depend on the processing

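Numbers of SVZ cells and the counts by genotype rest on few cells. The count of genes that differed between genotypes was 1 and became 0 with DESeq2 (9 at an unadjusted p under 0.05), without a filter on low genes (158), with mice of 10 or more SVZ cells (121) and without WT 1 (125), so that leaving out a mouse gave 0 to 1. The log2 difference in SVZ cell number ran from -0.18 to 2.73 with a mouse left out, and no setting passed. The S phase difference of 59.5 CPM was -113 CPM over all 6 mice and -35.3 to 139 CPM with a mouse left out. That of G2 and mitosis, -46.7 CPM, was 71.4 CPM in cells thinned to 700 UMIs and -110 to 1.39 CPM with a mouse left out. Genes called higher in SVZ cells numbered 709 against Excitatory and 746 against Ganglionic cells in WT mice alone, where only WT 1 sets the direction, and 273 against Ganglionic cells in thinned cells. Thinned calls held 179 of the 469 genes higher than in Ganglionic cells (38.2%) and 184 of the 435 higher than in Excitatory cells (42.3%). Unthinned shares of cells with *Eomes*, *Sema3c* and *Neurod1* were 69.2%, 78.5% and 58.5%. Of 504 log2 ratios of named genes under alternatives, 0 reversed and 481 moved by less than the SD between mice. The minimum of 1 SVZ cell per mouse is the setting already used.

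Replicate numbers do not mark shared animals, and deviations of same-numbered mice correlated at 0.06, 0.002 and 0.07, so they do not pair the mice. With the replicate number as a block in place of bead version the count of genes was 1 and the log2 difference in cell number 1.53 (FDR = 0.71).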

Other observations

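Over the 2402 genes at or above 96.3 CPM in SVZ cells, log2 levels of SVZ cells correlated most with interneurons (Pearson r = 0.81), before Ganglionic (0.68) and Excitatory cells (0.67). This is a description across genes, which are not independent replicates, and the subtypes share libraries and differ in depth. The correlation with Cajal-Retzius cells was 0.55.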
